A study of Mus musculus with 8 samples.

Results

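Rostral neurectoderm is the head-end neural plate of the early embryo, the tissue from which the forebrain and eye field arise. The cells described here carried this label in the combined annotation of a chimera experiment. Every cell with the label Rostral neurectoderm was taken, with no further choice, which gave 1054 of 28723 cells (3.67%), the 9th most frequent of 42 labels. Of these, 350 were Eomes-KO and 704 were WT host cells. The chimeras were made by injecting male tdTomato+ embryonic stem cells (ESC) with a loss-of-function Eomes allele into WT C57BL/6 blastocysts, and were collected at about E8.5. The ESC came from 4 independent KO clones, with 1 clone for each pool of several embryos. The tdTomato+ Eomes-KO cells and the tdTomato− WT host cells of these pools were sorted apart and sequenced as 4 single-cell RNA-seq libraries each. Injected WT ESC were not among the libraries, so loss of Eomes and ESC origin cannot be told apart.

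As background, Eomes encodes a T-box transcription factor of the early embryo, active in the visceral endoderm and in the primitive streak, where it acts in the formation of definitive endoderm and of cardiac and other mesoderm. Anterior neural fate is the course that ectoderm takes where signals of the Nodal, BMP and Wnt families are held low, and the anterior visceral endoderm and the tissues that leave the anterior streak are known sources of inhibitors of these signals. Injected ESC are known to enter the visceral endoderm of chimeras only rarely. Otx2 and Hesx1, homeobox genes of the anterior neural plate, Sox2, a pan-neural factor, and Pax6, a factor of the eye and forebrain, are the usual markers of rostral neurectoderm. Gene counts were not analysed here, so the label could not be checked against these markers and stands as transferred from the atlas.

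The Eomes-KO libraries held 602, 1153, 3346 and 3465 cells and the WT host libraries 2414, 3791, 5819 and 8133, and each library is named here by its number of cells. All 1054 cells had the same label in the original atlas annotation, and no other cell had it there. Rostral cells had between 3163 and 63700 unique transcripts (UMIs) each. Of the cell barcodes, 80 occurred in more than 1 library. They included the barcodes of 4 rostral cells, and no barcode was shared by 2 rostral cells. The labels do not say which libraries came from 1 pool, so genotypes were compared by unpaired tests, with a library as the unit.

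Rostral neurectoderm was present in every library of both genotypes, and its share of epiblast-derived cells did not pass the test between them. The Eomes-KO libraries of 602, 1153, 3346 and 3465 cells held 35, 28, 43 and 244 rostral cells, against 88, 37, 226 and 353 in the WT host libraries of 2414, 3791, 5819 and 8133 cells. As a share of epiblast-derived cells these were 5.82%, 2.43%, 1.29% and 7.04% in Eomes-KO libraries, against 3.67%, 0.985%, 4.39% and 4.42% in WT host libraries. The Eomes-KO shares lay both above and below those of the host, and the ranges overlapped. Exact 95% binomial intervals, which cover counting error only, ran from 0.932% to 1.73% in the lowest Eomes-KO library and from 6.21% to 7.94% in the highest. In WT host libraries they ran from 0.694% to 1.35% in the lowest and from 3.98% to 4.90% in the highest. The spread among libraries of 1 genotype was therefore wider than counting error.

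The mean share was 4.15% ± 2.73 in Eomes-KO and 3.37% ± 1.63 in WT host libraries (SD, n = 4 each). In edgeR's quasi-likelihood test over all labels with at least 10 cells, the log2 fold change of rostral neurectoderm was 0.28 (SE 0.53, 95% interval −0.86 to 1.42, adjusted p = 0.66). A decrease or an increase within that interval could not be told from no change with these libraries. Of the 33 labels tested, 23 passed an adjusted p of 0.05, or 69.7% of them, with 21.2% higher and 48.5% lower in Eomes-KO. Rostral neurectoderm was among the 10 that did not. The sign of its estimate depended on single libraries. The log2 fold change was −0.16 (adjusted p = 0.80) without the Eomes-KO library of 3465 cells, which held 244 of the 350 Eomes-KO rostral cells, and −0.023 (adjusted p = 0.96) without the one of 3791 WT host cells. It also depended on the scaling, at −0.63 with DESeq2 ratio size factors (adjusted p = 0.36) and 0.83 with poscounts size factors (adjusted p = 0.23). These scalings moved the median of all labels by −0.91 and 0.60 on the log2 scale.

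The other neural labels of the same fit differed in what they showed. Forebrain, midbrain and hindbrain is a label of brain cells that were on average mapped to later stages than rostral cells. It was lower in Eomes-KO at 3.49% ± 0.769, against 11.1% ± 2.28 in WT host libraries (SD, n = 4 each), with no overlap. Its log2 fold change was −1.66 (edgeR, SE 0.30, adjusted p = 0.00014). Neural crest, the migratory cells that leave the neural plate border, was lower at 0.103% ± 0.0862 in Eomes-KO, where WT host libraries had 1.58% ± 0.634 (SD, n = 4 each). Its log2 fold change was −3.56 (edgeR, SE 0.60, adjusted p = 8.0e-05). The Eomes-KO libraries of 602, 1153, 3346 and 3465 cells held only 0, 1, 7 and 4 neural crest cells. Of the 5 neural labels 2 were therefore called, both lower in Eomes-KO, beside the 48.5% of all tested labels that were lower. The share of forebrain, midbrain and hindbrain lost its call when DESeq2's poscounts size factors were used, at −1.17 on the log2 scale and an adjusted p of 0.061.

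Caudal neurectoderm, the neural plate of the hind end, had a log2 fold change of 1.27 (SE 0.58, adjusted p = 0.060), with 1.53% ± 0.875 in Eomes-KO and 0.591% ± 0.312 in WT host libraries (SD, n = 4 each). It passed the threshold under 7 of 20 alternatives, at log2 fold changes of 1.36 to 1.79. In edgeR these were without the Eomes-KO library of 3346 cells (1.59, adjusted p = 0.017) or that of 5819 WT host cells (1.55, adjusted p = 0.039), over ectoderm cells alone, and after each filter on label score, UMIs or doublet score. With DESeq2 and poscounts size factors its adjusted p was 0.0045. Spinal cord had a log2 fold change of −0.42 (SE 0.35, adjusted p = 0.29) and surface ectoderm, the precursor of the epidermis, one of 0.22 (SE 0.32, adjusted p = 0.56). Both changed sign under another scaling. Spinal cord also passed as lower in Eomes-KO with DESeq2 ratio size factors (log2 fold change −1.46, adjusted p = 0.0096) and with blood cells left out of the denominator (−0.86, edgeR adjusted p = 0.038). Whether the fold change of rostral neurectoderm differed from that of another neural label was tested only for the forebrain, midbrain and hindbrain label, as a ratio.

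**Figure D1:**
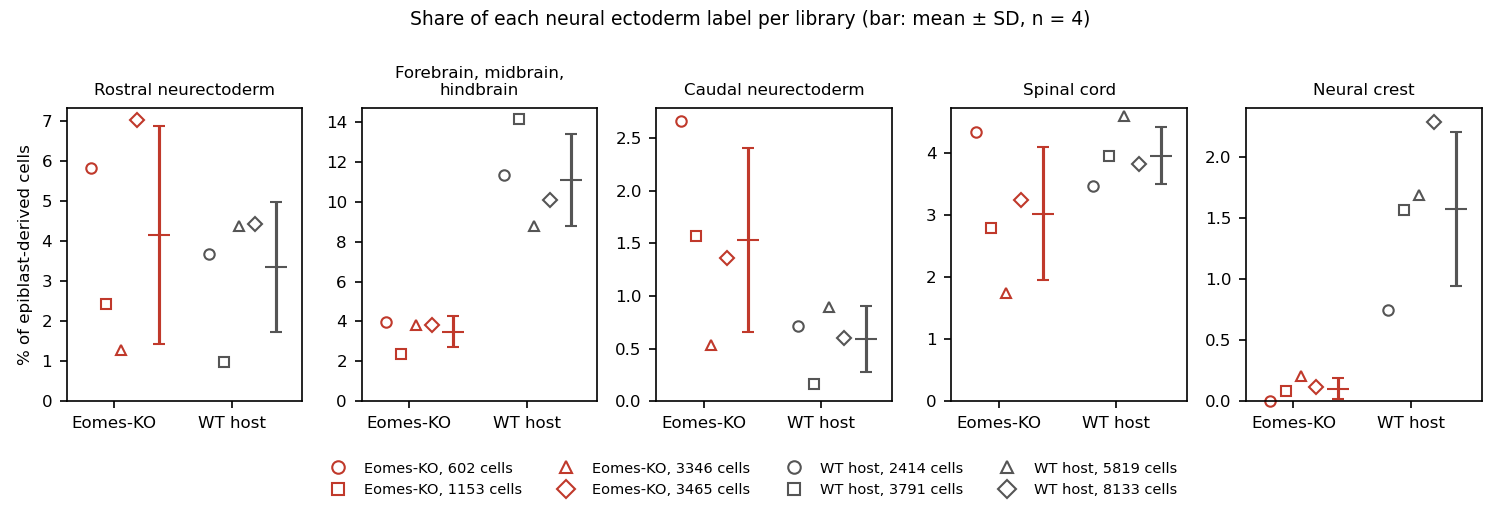
Percent of epiblast-derived cells (y axis, a separate scale in each panel) that carried each of the 5 neural ectoderm labels, with 1 point per library, Eomes-KO in red and WT host in grey, and a bar for the mean ± SD (n = 4). Marker shapes name a library within its genotype and do not pair libraries across genotypes. The rostral shares of both genotypes overlap (1.29% to 7.04% in Eomes-KO, 0.985% to 4.42% in WT host), while those of forebrain, midbrain and hindbrain do not.

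Shares of all epiblast-derived cells move when other lineages are lost, so the rostral label was also read within neural ectoderm, the sum of the 5 neural labels. This sum includes the forebrain, midbrain and hindbrain label and neural crest, both lower in Eomes-KO. A rostral share of it rises when those labels fall, also without a gain of rostral cells. Neural ectoderm made up 12.3% ± 4.58 of epiblast-derived cells in Eomes-KO and 20.6% ± 0.547 in WT host libraries (SD, n = 4 each), with no overlap. Rostral cells took 34.7%, 26.4%, 17.0% and 45.2% of neural ectoderm in the Eomes-KO libraries of 602, 1153, 3346 and 3465 cells. They took 18.4%, 4.74%, 21.6% and 20.9% in the WT host libraries of 2414, 3791, 5819 and 8133 cells. Of the Eomes-KO libraries 3 lay above every WT host library, and the library of 3346 cells lay below 3 of them. The difference of the means was 14.4 percentage points (30.8% ± 12.0 in Eomes-KO, 16.4% ± 7.89 in WT host, SD, n = 4 each), and it did not pass an exact permutation test (two-sided p = 0.11, smallest possible 0.029).

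Within anterior neural cells, there were 1.46, 1.04, 0.339 and 1.83 rostral cells for each forebrain, midbrain and hindbrain cell in Eomes-KO libraries, against 0.324, 0.0697, 0.499 and 0.439 in WT host libraries. Rostral cells outnumbered forebrain, midbrain and hindbrain cells in 3 Eomes-KO libraries and in no WT host library. As a log2 ratio, after 0.5 was added to both numbers of cells, this was −0.02 ± 1.07 in Eomes-KO and −1.91 ± 1.30 in WT host libraries (SD, n = 4 each), a difference of 1.89 (exact permutation test, two-sided p = 0.086). This ratio also rises where forebrain, midbrain and hindbrain cells are fewer, as they were in Eomes-KO. Forebrain, midbrain and hindbrain cells had a later mean mapped stage than rostral cells in every library. Both labels nevertheless shared an extended atlas label. Pooled over libraries, 50.5% of forebrain, midbrain and hindbrain cells in Eomes-KO and 28.9% in WT host had the extended atlas label Ectoderm. That is a broad label, which most rostral cells also carried. The groups overlapped through the Eomes-KO library of 3346 cells. With it left out they did not overlap, which fixes the exact permutation p at 0.029, the smallest that 3 against 4 libraries allow, and the differences were 19.0 percentage points for the share of neural ectoderm and 2.40 on the log2 scale for the ratio. The share differed least without the Eomes-KO library of 3465 cells, at 9.63 points (exact permutation p = 0.26), and the ratio differed least without the one of 3791 WT host cells, at 1.25 (exact permutation p = 0.11).

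**Figure D2:**
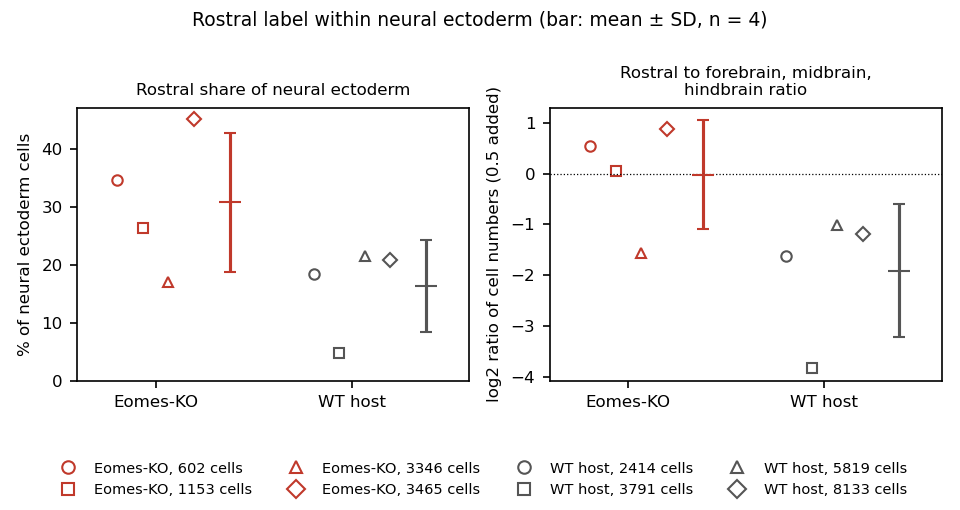
Rostral cells as a percent of neural ectoderm cells (left) and as the log2 ratio to forebrain, midbrain and hindbrain cells with 0.5 added to each number (right), with 1 point per library, Eomes-KO in red and WT host in grey, and a bar for the mean ± SD (n = 4). Eomes-KO libraries lie at 17.0% to 45.2% and WT host libraries at 4.74% to 21.6%, and the Eomes-KO library of 3346 cells lies within the WT host range in both panels.

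The extended atlas annotation, a finer set of 77 labels, placed rostral cells under 3 labels. Ectoderm, a broad label of this annotation, held 998 cells (94.7%), 328 of them Eomes-KO and 670 WT host. Non-neural ectoderm, the precursor of surface epithelia, held 40 (16 Eomes-KO and 24 WT host), and optic vesicle, the outgrowth of the forebrain that forms the eye, held 16 (6 Eomes-KO and 10 WT host). In most libraries, fewer than 1 in 10 rostral cells lay outside Ectoderm, and the exceptions were the Eomes-KO library of 1153 cells and the WT host library of 3791 cells.

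The Ectoderm label took 97.1%, 85.7%, 90.7% and 94.7% of rostral cells in the Eomes-KO libraries of 602, 1153, 3346 and 3465 cells, against 97.7%, 89.2%, 94.2% and 95.8% in the WT host libraries of 2414, 3791, 5819 and 8133 cells. Non-neural ectoderm averaged 6.37% ± 5.33 in Eomes-KO and 3.83% ± 3.32 in WT host libraries (SD, n = 4 each). Optic vesicle averaged 1.57% ± 2.19 in Eomes-KO and 1.94% ± 0.940 in WT host libraries (SD, n = 4 each), and was at 0 cells in the Eomes-KO libraries of 602 and 1153 cells. The 3 shares overlapped between genotypes, and no label passed the test (exact permutation, adjusted p = 0.74 each over 3 labels).

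The extended labels cut across the rostral label. The extended Ectoderm label held 734 Eomes-KO cells, of which 44.7% were rostral, 157 were forebrain, midbrain and hindbrain, 161 spinal cord and 84 caudal neurectoderm. It held 1641 WT host cells, of which 40.8% were rostral, 596 were forebrain, midbrain and hindbrain, 271 spinal cord and 97 caudal neurectoderm. Most optic vesicle cells were not rostral cells, with 70 of 77 in Eomes-KO and 479 of 489 in WT host under forebrain, midbrain and hindbrain. Rostral cells with the non-neural ectoderm label had a mean original label score of 0.595, against 0.837 for those with the Ectoderm label. This score is the part of the 15 closest atlas cells that had the transferred label, so a lower score means that more of these neighbours had other labels. All cells of a genotype were pooled for these counts, so they are descriptions with no test. In the abundance alternative with the extended annotation, the whole Ectoderm label stood in for rostral neurectoderm. Its log2 fold change of 0.06 (edgeR, adjusted p = 0.90) is therefore that of a mixed label.

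Each cell also received the embryonic stage of its nearest atlas cells. Of the rostral cells, 8 were mapped to E7.5, 217 to E7.75, 652 to E8.0 (61.9%) and 177 to E8.25, and none to E8.5. The embryos are labelled E8.5, and the paper's Results give a range of E8.25 to E8.5. All epiblast-derived cells had a mean mapped day of 8.12 to 8.30 across the libraries. Label and stage come from the same 15 atlas cells, so the stage of a label is not independent of the label. Forebrain, midbrain and hindbrain cells had a mean mapped day of 8.29 ± 0.0554 in Eomes-KO and 8.34 ± 0.0136 in WT host libraries (SD, n = 4 each), later than rostral cells in every library. The within-library difference was −0.432 to −0.238 days in Eomes-KO and −0.379 to −0.248 days in WT host libraries. Its difference between the genotypes did not pass the test (exact permutation, adjusted p = 0.97 over 9 measures).

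Cells at E8.25 made up 5.71%, 7.14%, 32.6% and 11.5% of rostral cells in the Eomes-KO libraries of 602, 1153, 3346 and 3465 cells, against 17.0%, 54.1%, 20.4% and 14.2% in the WT host libraries of 2414, 3791, 5819 and 8133 cells. Of the Eomes-KO libraries 3 were below every WT host library, and the library of 3346 cells was above 3 of them. The means were 14.2% ± 12.5 in Eomes-KO and 26.4% ± 18.6 in WT host libraries (SD, n = 4 each), which did not pass an exact permutation test (adjusted p = 0.56 over 3 stages). The difference of −12.2 percentage points moved to −2.97 when the WT host library of 3791 cells was left out, and was −18.3 without the Eomes-KO library of 3346 cells. Cells at E7.75 averaged 27.4% ± 9.60 in Eomes-KO and 19.5% ± 5.47 in WT host libraries (SD, n = 4 each, exact permutation, adjusted p = 0.51). Cells at E8.0 averaged 56.5% ± 14.7 in Eomes-KO and 53.1% ± 14.3 in WT host libraries (SD, n = 4 each, exact permutation, adjusted p = 0.74). The mean mapped day was 7.96 ± 0.0579 in Eomes-KO and 8.01 ± 0.0627 in WT host libraries (SD, n = 4 each, exact permutation, p = 0.29). Their difference of −0.0545 days was −0.0248 without that WT host library, and −0.0299 without the Eomes-KO library of 1153 cells.

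The library with the fewest rostral cells per epiblast-derived cell had the latest rostral cells in each genotype. In the Eomes-KO library of 3346 cells the mean mapped day of rostral cells was 8.02, and 7.88 to 7.99 in the other Eomes-KO libraries. In the WT host library of 3791 cells it was 8.10, and 7.96 to 8.01 in the other WT host libraries. All epiblast-derived cells of these libraries, pooled over labels, were also mapped late, at a mean day of 8.21 and 8.30, against 8.12 to 8.16 in the other Eomes-KO and 8.18 to 8.22 in the other WT host libraries. Their rostral cells had the lowest mean original label score, at 0.772 in that Eomes-KO and 0.723 in that WT host library. Among the other libraries of each genotype, the lowest rostral share went with the earliest mean mapped day of rostral cells. In the Eomes-KO libraries of 1153, 602 and 3465 cells, shares of 2.43%, 5.82% and 7.04% went with mean days of 7.88, 7.94 and 7.99. In the WT host libraries of 2414, 5819 and 8133 cells, shares of 3.67%, 4.39% and 4.42% went with 7.96, 8.01 and 7.97. The part of embryo stage in the rostral share was not tested.

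**Figure D3:**
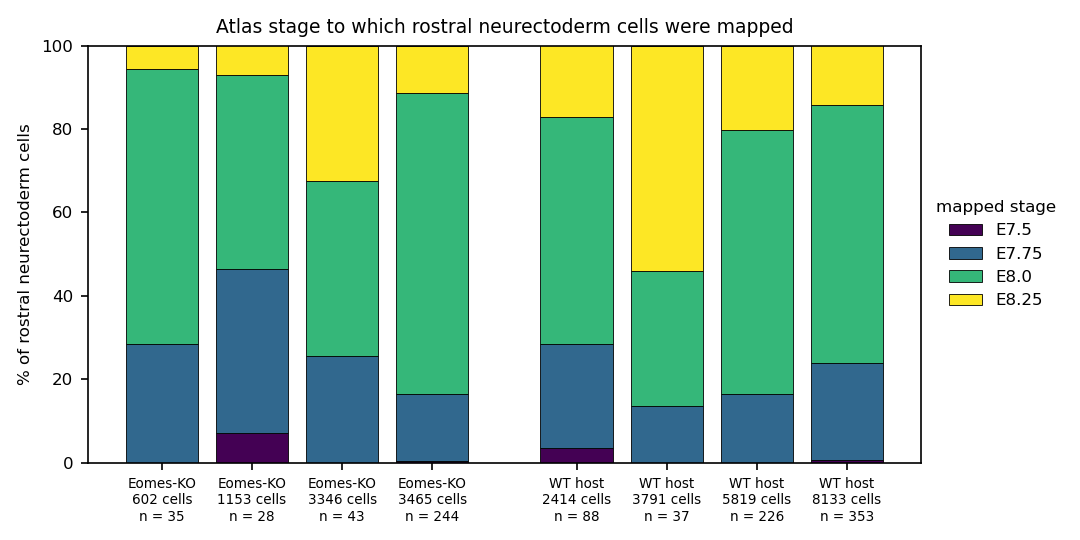
Percent of rostral neurectoderm cells (y axis) mapped to each atlas stage, as 1 stacked bar per library with the number of rostral cells under it, Eomes-KO on the left and WT host on the right. E8.0 is the most frequent stage in every library but the WT host library of 3791 cells, where 54.1% of rostral cells are at E8.25.

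Rostral cells had more UMIs in most Eomes-KO libraries than in WT host libraries, a difference that did not pass the test. Rostral cells had a median of 37607, 23886, 17024 and 9140 UMIs in the Eomes-KO libraries of 602, 1153, 3346 and 3465 cells, against 7925, 10595, 10184 and 4779 in the WT host libraries of 2414, 3791, 5819 and 8133 cells. Of the Eomes-KO libraries 3 lay above every WT host library and the 4th lay among them. The means were 21914 ± 12073 in Eomes-KO and 8371 ± 2667 in WT host libraries (SD, n = 4 each, exact permutation, p = 0.086, adjusted p = 0.21 over 5 measures). Median genes per cell averaged 4391 ± 1256 in Eomes-KO and 2702 ± 543 in WT host libraries (SD, n = 4 each, exact permutation, adjusted p = 0.21). The whole libraries were spaced alike, with a median of 8901 to 32568 UMIs over all epiblast-derived cells in Eomes-KO and 5105 to 10831 in WT host libraries.

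Mitochondrial transcripts took 1.76% ± 0.303 of UMIs in Eomes-KO and 1.68% ± 0.345 in WT host libraries (SD, n = 4 each, exact permutation, adjusted p = 0.77). Ribosomal transcripts took 27.3% ± 1.53 in Eomes-KO and 25.8% ± 0.659 in WT host libraries (adjusted p = 0.29), and the doublet score was 0.173 ± 0.0714 in Eomes-KO and 0.198 ± 0.0250 in WT host libraries (adjusted p = 0.71), both from library medians with n = 4 each and an exact permutation test. The genotypes overlapped in each of these measures.

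The fraction of nearest atlas cells with the rostral label averaged 0.812 ± 0.0402 in Eomes-KO and 0.799 ± 0.0530 in WT host libraries (SD, n = 4 each, exact permutation, adjusted p = 0.77). The extended label score was 0.882 ± 0.0343 in Eomes-KO and 0.864 ± 0.0331 in WT host libraries, and the stage score was 0.556 ± 0.0270 in Eomes-KO and 0.571 ± 0.00974 in WT host libraries (SD, n = 4 each, exact permutation, adjusted p = 0.73 for both). Of all rostral cells, 133 Eomes-KO (38.0%) and 216 WT host cells (30.7%) had all 15 neighbours under the label, and 10 Eomes-KO (2.86%) and 36 WT host cells (5.11%) had a score under 0.5. These are shares of pooled cells, in which 1 library weighs heavily in each genotype. The nearest single atlas cell was 1 of 308 for Eomes-KO and 1 of 552 for WT host cells. Of these atlas cells 73 were nearest to cells of both genotypes, or 23.7% of the Eomes-KO and 13.2% of the WT host set. These percentages differ only because the sets differ in size. The overlap between libraries of 1 genotype was not computed, so the overlap between genotypes cannot be read as a difference.

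**Figure D4:**
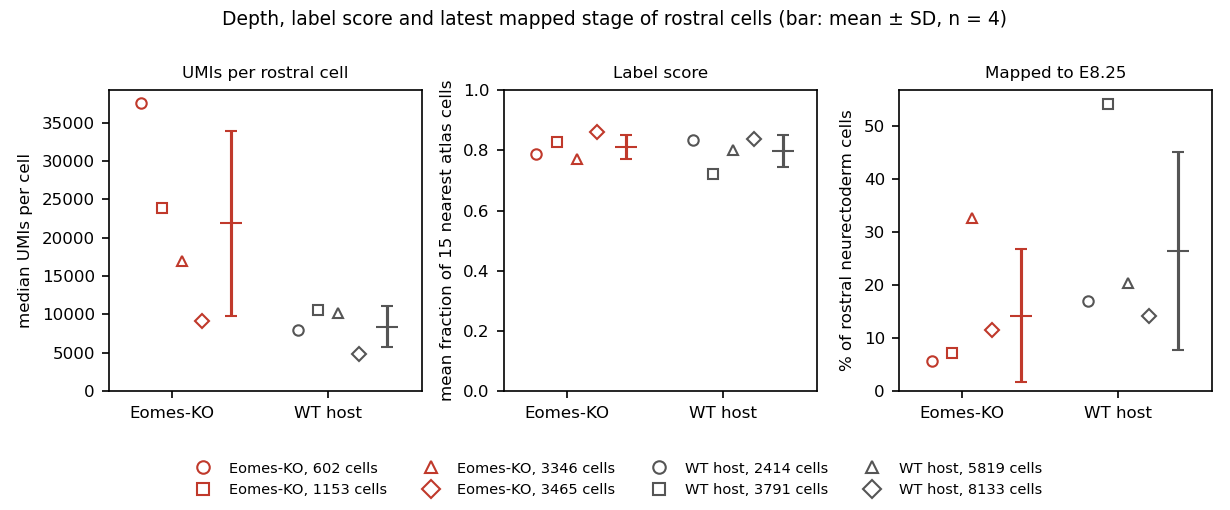
Median UMIs per rostral cell, mean fraction of the 15 nearest atlas cells with the rostral label, and percent of rostral cells mapped to E8.25 (y axes), with 1 point per library, Eomes-KO in red and WT host in grey, and a bar for the mean ± SD (n = 4). Median UMIs run from 9140 to 37607 in Eomes-KO and from 4779 to 10595 in WT host libraries, and label scores lie between 0.723 and 0.861 throughout.

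The mitochondrial share of UMIs was compared within each library between rostral cells and forebrain, midbrain and hindbrain cells. This comparison was chosen after its values had been seen, so it is a description with no test. The median in rostral cells was 1.96%, 1.53%, 1.47% and 2.07% in the Eomes-KO libraries of 602, 1153, 3346 and 3465 cells, where forebrain, midbrain and hindbrain cells had 1.17%, 1.11%, 1.22% and 1.80%. In the WT host libraries of 2414, 3791, 5819 and 8133 cells it was 1.67%, 1.20%, 1.95% and 1.91% in rostral cells, against 1.19%, 1.03%, 1.41% and 1.41%. Rostral cells were higher in 8 of 8 libraries, by 0.17 to 0.795 percentage points. The mean difference was 0.428 ± 0.200 points (SD, n = 8).

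Over all epiblast-derived cells the median was 1.34% to 1.98% in Eomes-KO and 1.41% to 1.91% in WT host libraries. Rostral cells were above it in 6 of 8 libraries, and forebrain, midbrain and hindbrain cells were below it in 7 of 8. With cells of 10000 to 20000 UMIs the mitochondrial difference was 0.347 points and with cells mapped to E8.25 it was 0.371 points, each higher in 6 of 6 libraries. Libraries with fewer than 5 cells of a label were left out there. The within-library difference was 0.432 ± 0.253 points in Eomes-KO and 0.424 ± 0.171 points in WT host libraries (SD, n = 4 each), and the difference between genotypes did not pass an exact permutation test (adjusted p = 0.97 over 9 measures). Rostral cells did not have the highest mitochondrial share of all labels. Among labels with at least 20 cells they ranked between 2 of 16 and 7 of 12 in Eomes-KO and between 9 of 27 and 13 of 21 in WT host libraries.

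**Figure D5:**
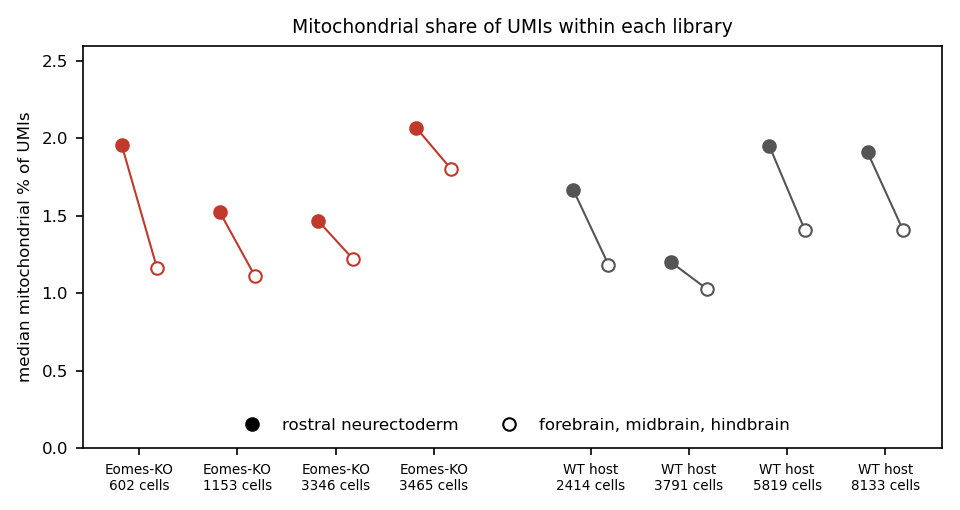
Median percent of UMIs from mitochondrial transcripts (y axis) in rostral neurectoderm cells (filled) and in forebrain, midbrain and hindbrain cells (open) of each library, joined by a line, Eomes-KO in red on the left and WT host in grey on the right. The filled point is above the open one in 8 of 8 libraries.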

How the data were processed

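Single-cell RNA-seq of sorted cells from pooled chimeric embryos gave 8 libraries. The submitters' processing notes name Cell Ranger 6.0.1 and mm10, to which the authors added a tdTomato gene. The deposited counts of UMIs and of genes are raw totals of a cell. The percent of UMIs from mitochondrial and from ribosomal genes was also deposited. The authors computed a hybrid doublet score and removed cells over 0.5 of it before they deposited the table. Label scores were deposited as a fraction, the part of the 15 nearest atlas cells (E7.5 to E8.5) that carry the transferred label. The table holds fewer cells than the study describes, and gene counts were not analysed here.

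Genotype was taken from the tdTomato column and library from the library column. The library names do not give the embryo pool, which the study's own abundance test includes as a term, so genotype was the only term here. Cells were counted per library and label, without parietal endoderm, visceral endoderm and the ExE labels, as in the study. These numbers went into glmQLFit and glmQLFTest of edgeR 4.0.16 (R 4.3.3), with epiblast-derived cells as library size, labels of at least 10 cells, and Benjamini-Hochberg adjustment over all 33 labels at 0.05. Shares, medians and scores per library were compared by exact two-sided permutation of 4 against 4 libraries (70 arrangements, smallest p = 0.029). Libraries with fewer than 5 rostral cells would have been left out. Intervals of shares are Clopper-Pearson at 95%, for counting error only.

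Alternatives were TMM, DESeq2 1.42.0 with 3 kinds of size factors, limma 3.58.1, other denominators and annotations, thresholds on the label score (0.5 or more), UMIs (10000 or more, or 10000 to 20000) and doublet score (under 0.25), and each library left out. The labels named are the 5 neural labels, surface ectoderm, and every extended label and stage with at least 10 rostral cells, with E7.5 also given. The rostral cells, these lists and the tests were chosen with earlier results of these data known.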

Additional observations from a re-analysis of the deposited data

Results flagged for a closer look

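Among 54 groups of 4 libraries, 3 had a library far from the other 3 by Dixon's ratio, a test that chance passes in about 1 of 20 groups. In the Eomes-KO library of 1153 cells, 14.3% of rostral cells (4 of 28) carried the extended label non-neural ectoderm, while the other Eomes-KO libraries had 2.86% to 4.65%. In the WT host library of 3791 cells, 54.1% of rostral cells (20 of 37) were mapped to E8.25, while the other WT host libraries had 14.2% to 20.4%. In the same WT host library the mitochondrial share of rostral cells exceeded that of forebrain, midbrain and hindbrain cells by 0.17 percentage points, while the other WT host libraries had 0.485 to 0.54 points. All 3 rest on libraries with few rostral cells.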

How the results depend on the processing

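No paired analysis was possible because the library names cannot be tied to embryo pools, and the replicate block listed as an alternative was not run. Over 33 results and 390 alternatives, 350 kept direction and side of the threshold (or, with no test, moved by less than the SD between libraries), 1 lost a call, 11 gained one and 28 changed sign. All sign changes were in results that had not passed. The cause of the changes was not tested. The original annotation, listed as an alternative, held the same 1054 rostral cells and was no separate check of their abundance. The abundance of rostral neurectoderm was not called under any of its 23 alternatives. Its log2 fold change turned to −0.63 with DESeq2 ratio size factors and −0.12 without blood cells, and ranged from −0.16 to 0.60 with each library left out, the lowest without the Eomes-KO library of 3465 cells, and −0.023 without the WT host library of 3791 cells. It was 0.93 with at least 10000 UMIs and 0.67 with a doublet score under 0.25 (adjusted p = 0.13 and 0.20). The extended Ectoderm label, mostly not rostral, had 0.06. Spinal cord turned to 0.020 with poscounts size factors and 0.13 with a doublet score under 0.25, and was called lower with DESeq2 ratio size factors (−1.46, adjusted p = 0.0096) and without blood cells (−0.86, adjusted p = 0.038). Caudal neurectoderm was called higher over ectoderm cells (1.36), with thresholds on the label score (1.40), UMIs (1.64) or doublet score (1.77), with poscounts size factors (1.79) and without either of 2 libraries (1.55 and 1.59). Surface ectoderm turned to −0.052 with TMM, −0.81 with DESeq2 ratio size factors and −0.19 without blood cells. The rostral share of neural ectoderm ranged from 9.63 to 19.0 percentage points and the log2 ratio to forebrain, midbrain and hindbrain from 1.25 to 2.40 with each library left out, both called only without the Eomes-KO library of 3346 cells. Under the other settings both kept their direction.

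With each library left out, the genotype difference ranged from −0.10 to 3.96 percentage points for non-neural ectoderm, −1.39 to 0.158 for optic vesicle (0.236 with a label score of at least 0.5), −3.42 to 8.35 for E8.0, −18.3 to −2.97 for E8.25 and −0.0871 to 0.169 for mitochondrial percent. It ranged from −0.0508 to 0.0025 for the doublet score (−0.168 with 10000 to 20000 UMIs). For the mean mapped day it ranged from −0.0744 to −0.0248, and for the original label score from −0.0123 to 0.0261 (−0.0167 with medians). For rostral minus forebrain, midbrain and hindbrain cells it ranged from −0.112 to 0.0696 points for mitochondrial percent (−0.0533 with 10000 to 20000 UMIs) and from −0.0360 to 0.0286 for the mean mapped day (0.0360 with 10000 to 20000 UMIs). The mitochondrial difference of rostral and forebrain, midbrain and hindbrain cells over 8 libraries, which was added with its alternatives after the data were seen and has no test, ranged from 0.376 to 0.465 with each library left out, and was 0.347 with 10000 to 20000 UMIs and 0.371 at E8.25. Libraries with 28 to 43 rostral cells set the precision of stage and finer label shares.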
